A study of Mus musculus with 4 samples.

Results

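The Hippo pathway is described here through 10 genes: the coactivator genes Yap1 and Wwtr1 (which encodes TAZ), the transcription factor genes Tead1, Tead2, Tead3 and Tead4, the kinase genes Lats1 and Lats2, and the target genes Cyr61 and Ctgf. They were chosen by name, as the rows of the deposited gene table whose symbol equals one of these, and they are 10 of its 51912 genes. Messenger RNA was sequenced from mCherry-positive islet cells that were sorted as pancreatic β cells from mice at postnatal day 13. There were 2 control libraries (Rosa26-lsl-H2B-mCherry/+ and Ucn3-Cre/+ with Robo1+/+ and Robo2+/+) and 2 Robo mutant libraries (the same reporter and Cre alleles with Robo1delta/delta and Robo2flx/flx). All 4 therefore carried 1 copy of the nuclear reporter and 1 of a Cre driven by Ucn3, a gene of maturing β cells; the Robo1 allele is given as deleted, so its loss does not depend on the Cre, whereas that of Robo2 does. The title of the series asks whether endocrine cells need Roundabout receptors in β cells to sort into the mature islet. Nothing in the labels tells whether a library is 1 animal or a pool, so p-values measure the spread between libraries, which may be technical.

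In the Hippo pathway a kinase cascade ends in LATS1 and LATS2, which phosphorylate YAP and TAZ and keep them in the cytoplasm. Unphosphorylated YAP and TAZ enter the nucleus and bind the TEAD proteins, which contact DNA, and genes such as Cyr61 and Ctgf are then transcribed. Cell contact, polarity proteins and tension of the actin cytoskeleton act on the cascade. In the pancreas, YAP is known to be lost from endocrine cells as they form and to persist in duct, acinar and stromal cells. The cascade acts largely through protein phosphorylation, which transcript levels do not measure.

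Totals ran from 38886129 to 49593712 counts per library. Levels are given as CPM, a count scaled to the TMM-adjusted library total, and a difference as the log2 change, Robo mutant against control, from edgeR's quasi-likelihood test with Benjamini-Hochberg adjustment over all 16517 genes that passed the filter. Robo1 stood at 48.5 and 104 CPM in the controls and 22.3 and 21.0 in the mutants, and Robo2 at 75.3 and 118 against 32.7 and 25.6, so neither targeted transcript overlapped between the genotypes. Insulin led the β-cell markers, with Ins2 between 99747 and 153150 CPM. Libraries also held transcripts of other cells in unequal amounts. The 10 acinar markers summed to 3109 and 374 CPM in controls 1 and 2 and to 1528 and 28121 CPM in mutants 1 and 2, and the 10 stromal and pericyte markers to 2418, 705, 1097 and 14.7 CPM. Mutant 2 was the highest of the libraries in the first sum and the lowest in the second. Fewer genes had any count in the mutants (17751 and 17937) than in the controls (19919 and 20918). In such sorted samples, fewer cells of a type and less RNA per cell cannot be told apart.

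The 10 genes did not move as a group. Wwtr1 had at most 8 counts in a mutant library, Cyr61 had a mean of 47.9 CPM in them against 71.5 CPM in control, and Yap1, Lats1 and Lats2 had overlapping values in the genotypes. Of the 10 genes, 9 passed the filter and Tead4 did not. None of the 9 passed the adjusted threshold of 0.05 in edgeR, where 0% of all tested genes did (0 of 16517, smallest adjusted p = 0.680). DESeq2 called 1 of the 9, Wwtr1, against 0.914% of all tested genes. At an unadjusted p under 0.05 in edgeR there were 2 of 9, Wwtr1 and Cyr61, both lower, where 6.21% of all tested genes reached that level in either direction and 4.21% did so with a lower value in the mutant. The genotypes did not overlap in 3 of 9 (Wwtr1 and Cyr61 lower, Tead3 higher), where the share was 36.6% of all tested genes in either direction and 20.4% with lower values in the mutant. The median log2 change of the 9 was 0.060, beside -0.013 over all genes tested.

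**Figure D1:**
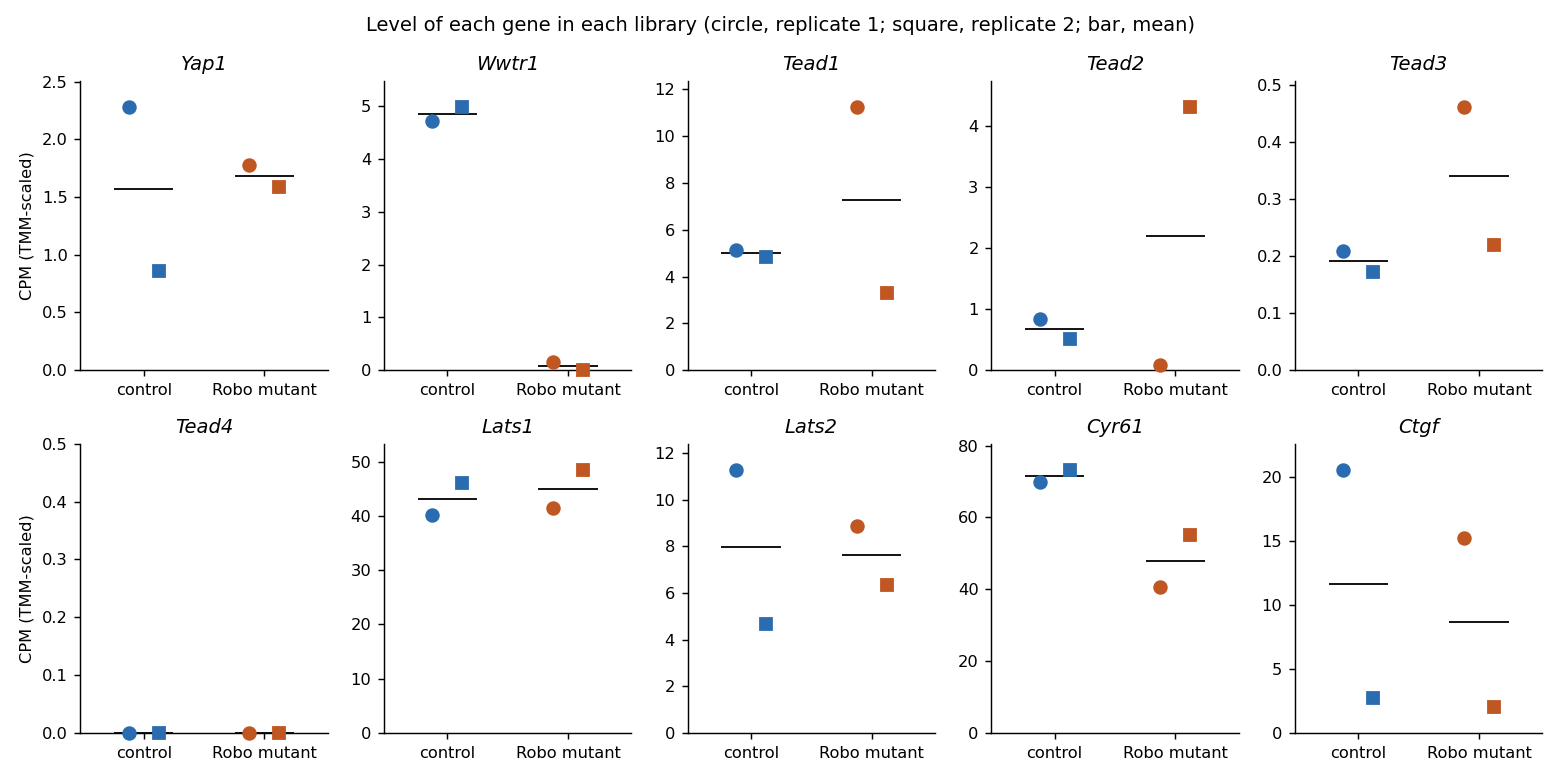
CPM of each of the 10 genes (vertical axis, TMM-scaled, each panel with its own range from 0) in the 2 control and 2 Robo mutant libraries, with the mean as a bar. Wwtr1 is at 4.72 and 4.98 in the controls and at 0.160 and 0 in the mutants, whereas Ctgf is high in control 1 and mutant 1 and low in the other two.

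The coactivators come first. Wwtr1 (ENSMUSG00000027803, chromosome 3, 57455649 to 57575910, minus strand, GRCm38) encodes TAZ, the paralogue of YAP. The control libraries held 226 and 203 of its counts and the mutant libraries 8 and 0, or 4.72, 4.98, 0.160 and 0 CPM. The control libraries differed by a factor of 1.06 and both lay far above both mutants. The mean was 60.6-fold lower in the mutant. Over the summed counts of each genotype the ratio was 57.8, with an exact binomial 95% interval of 29.1 to 135 that covers counting error only. Its log2 change of -5.86 had a standard error of 1.71 (unadjusted p = 0.022, adjusted p = 0.680 by edgeR's quasi-likelihood test). DESeq2 gave -5.89 and called it (adjusted p = 0.0046). Wwtr1 passed the filter through the control libraries alone, so a gene with its mutant counts could enter the test only by being higher in control.

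Over the whole test, 318 of 16517 genes had a log2 change at or below that of Wwtr1, and 304 were at 0 in both mutant libraries against 21 in both controls. Wwtr1 is also a gene of stromal and endothelial cells. The stromal sums were 2418 and 705 CPM in the controls and 1097 and 14.7 CPM in the mutants. Of the 10 stromal markers, 1 lay lower in both mutants than in both controls, where 20.4% of all tested genes did so. It was the collagen gene Col1a2, at 424, 122, 94.5 and 1.89 CPM. At 0 in both mutants were 0 of the 10, and Wwtr1, with 8 and 0 counts, was not either. The most abundant, Col3a1, was at 1338, 426, 615 and 8.93 CPM. The 8 endothelial markers summed to 4.14, 17.7, 3.74 and 5.81 CPM, with Plvap, a gene of fenestrated capillaries, at 0.355, 4.79, 0.260 and 0.154 CPM and Esam, the most abundant, at 3.18, 5.40, 2.86 and 5.63 CPM. Esam made up most of the sum in each library but control 2. Of these 8 markers, 4 had 0 counts in control 1, none did in control 2 and 5 did in each mutant. The same 5, Kdr, Cdh5, Flt1, Tek and Emcn, were at 0 in both mutants. In control 1, Cdh5 had 6 counts and the other 4 of them had 0. The part of stromal and endothelial cells in the Wwtr1 value was not tested.

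Yap1 (ENSMUSG00000053110, chromosome 9, 7931999 to 8004596, minus strand) was weak in every library, at 2.28 and 0.859 CPM in control and 1.78 and 1.58 CPM in mutant cells. The mutant values lay between those of the controls, which differed 2.65-fold. The log2 change of 0.10 had a standard error of 0.85, so a like level in the genotypes is not shown. Compared per kb of merged exon length, Wwtr1 exceeded Yap1 by 4.02 and 11.2 times in the controls and stood at 0.174 times and 0 times Yap1 in the mutants. The order of the coactivator transcripts was thus opposite in the genotypes. Together they came to 1.23 and 1.14 CPM per kb in control and to 0.226 and 0.171 CPM per kb in mutant libraries. A noncoding gene on the opposite strand, Gm20416, overlaps Yap1 and had 0 counts in every library.

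The region upstream of Wwtr1 is shown because this gene differed most, that of Yap1 because it is the paralogue with overlapping values, and that of Cyr61 because it is a known YAP and TAZ target gene with lower values in the mutants. The sequences are the 250 bases before the RefSeq start (GRCm38.p6), read 5′ to 3′ on the strand of the gene, with capitals marking each match to the TEAD motif GGAATG or its reverse complement CATTCC.
Wwtr1, chr3:57575911-57576160, minus strand: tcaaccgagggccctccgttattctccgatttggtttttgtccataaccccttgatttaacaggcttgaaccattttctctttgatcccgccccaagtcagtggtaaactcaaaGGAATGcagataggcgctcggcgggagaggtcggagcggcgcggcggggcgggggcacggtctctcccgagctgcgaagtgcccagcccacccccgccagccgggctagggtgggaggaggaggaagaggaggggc
Yap1, chr9:8004597-8004846, minus strand: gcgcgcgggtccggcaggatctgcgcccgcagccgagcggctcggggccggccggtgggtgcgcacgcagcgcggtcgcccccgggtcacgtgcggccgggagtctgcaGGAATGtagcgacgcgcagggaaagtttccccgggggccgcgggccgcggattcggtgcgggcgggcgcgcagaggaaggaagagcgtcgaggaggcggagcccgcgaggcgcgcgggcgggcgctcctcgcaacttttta
Cyr61, chr3:145649986-145650235, minus strand: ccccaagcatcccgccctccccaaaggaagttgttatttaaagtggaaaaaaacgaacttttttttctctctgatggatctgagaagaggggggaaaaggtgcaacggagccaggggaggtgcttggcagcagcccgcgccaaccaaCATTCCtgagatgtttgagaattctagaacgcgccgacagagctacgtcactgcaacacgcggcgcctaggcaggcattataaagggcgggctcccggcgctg

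Each of the 3 windows held 1 match, beginning 136 bases before the start in Wwtr1, 141 in Yap1 and 103 in Cyr61, the last in the opposite orientation. Of 32851 such RefSeq windows, 12.6% held at least 1 match, so a match is a description and not a binding site. Among the other genes, windows were at hand for Tead2, Tead3, Lats1 and Lats2. Tead3 held matches upstream of 2 of its 3 starts, and Tead2, Lats1 and Lats2 held none in these windows. Windows for Ctgf, Tead1 and Tead4 were not analysed here.

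The TEAD genes, whose proteins carry YAP and TAZ to DNA, gave different pictures in the 2 mutant libraries. Tead1 (ENSMUSG00000055320, chromosome 7, 112679318 to 112906807, plus strand) was at 5.14 and 4.83 CPM in control, 11.2 CPM in mutant 1 and 3.30 CPM in mutant 2. The controls agreed closely, 1 mutant lay above them and the other below. The log2 change of 0.54 (SE 0.69) became -0.59 without mutant 1 and 1.17 without mutant 2. The 3 delta-cell markers summed to 1061, 979, 2504 and 1282 CPM. The somatostatin gene Sst, at 793, 712, 2145 and 803 CPM, made up most of this sum. Of the 3, Sst and Hhex were highest in mutant 1, and Rbp4 was highest in mutant 2, at 258, 254, 329 and 470 CPM. The part of delta cells in the Tead1 value was not tested.

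Tead2 (ENSMUSG00000030796, chromosome 7, 45215753 to 45233644, plus strand), which is prominent in embryonic tissue, was counted 40 and 21 times in the controls and 4 and 196 times in mutants 1 and 2. In CPM these were 0.836, 0.515, 0.0800 and 4.31, so the mutants lay on either side of both controls and differed from each other 53.9-fold. Its log2 change of 1.70 (SE 1.77) became -3.04 without mutant 2. Of the 10 acinar markers, 9 were highest in mutant 2 and 1, the lipase gene Pnlip, in mutant 1 (0.397, 0.908, 3.14 and 2.95 CPM). Examples of the 9 are the protease gene Ctrb1 at 632, 77.3, 229 and 6282 CPM and the amylase gene Amy2b at 10.1, 1.57, 3.14 and 94.3 CPM. The part of acinar cells in the Tead2 value was not tested. Cd37, a leukocyte gene on the opposite strand, shares exonic sequence with Tead2. Its 61, 16, 186 and 20 counts were highest in mutant 1, where Tead2 was lowest, but without strand information reads of the shared part cannot be assigned.

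Tead3 (ENSMUSG00000002249, chromosome 17, 28331671 to 28350817, minus strand) had 10, 7, 23 and 10 counts. Its mutants, at 0.460 and 0.220 CPM, lay above the controls, at 0.209 and 0.172 CPM, but counting error alone spans a summed ratio of 0.975 to 3.45 (mutant over control, exact 95%). The log2 change was 0.83 (SE 1.11). Tead4 (ENSMUSG00000030353, chromosome 6, 128224288 to 128300823, minus strand) had 0 counts throughout, an upper limit of 3 counts per library or 0.0600 to 0.0736 CPM. Per kb, Tead1 made up 64.8% and 72.8% of the summed TEAD level in the controls, 90.7% in mutant 1 and 20.7% in mutant 2. Tead2 made up 29.9%, 22.0%, 1.83% and 76.5%. The leading TEAD transcript was Tead1 in 3 libraries and Tead2 in mutant 2.

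Of the kinase genes, Lats1 was steady and Lats2 was not. Lats1 (ENSMUSG00000040021, chromosome 10, 7681214 to 7716460, plus strand) was at 40.2 and 46.1 CPM in control and 41.5 and 48.4 CPM in mutant libraries. The values interleaved, and the log2 change of 0.060 had a standard error of 0.17, the smallest error among the 9 tested genes. With library totals alone as the scale it was -0.0051. Lats2 (ENSMUSG00000021959, chromosome 14, 57689662 to 57758388, minus strand), itself a YAP and TAZ target gene in a feedback loop, was at 11.3 and 4.69 CPM in control and 8.88 and 6.36 CPM in mutant libraries. Replicate 1 was the higher in each genotype, and the mutants lay between the controls. The log2 change was -0.068 (SE 0.55), and limma on log2 CPM gave 0.037. Lats2 shares 2956 identical bases with Gm49361, an overlapping annotated gene on the same strand that was not analysed here, so its own level is uncertain. Per kb, Lats1 made up 77.3% to 90.4% of the summed LATS level over the 4 libraries.

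The target genes differed from each other. Cyr61 (ENSMUSG00000028195, chromosome 3, 145646976 to 145649981, minus strand) encodes a secreted matrix-associated protein of the CCN family. It was at 69.8 and 73.2 CPM in control and 40.6 and 55.2 CPM in mutant libraries, 1.49-fold lower by the means. The controls differed by a factor of 1.05 and both lay above both mutants. The log2 change of -0.58 had a standard error of 0.19 (unadjusted p = 0.035, adjusted p = 0.756 by edgeR, 0.473 by DESeq2). It was lower in the mutant under all 13 alternative settings, from -0.82 to -0.37, and passed the adjusted threshold in none of them.

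Ctgf (ENSMUSG00000019997, chromosome 10, 24595442 to 24598683, plus strand), the closest relative of Cyr61 among these genes, was at 20.6 and 2.70 CPM in control and 15.2 and 2.02 CPM in mutant libraries. It differed 7.62-fold between the controls and 7.53-fold between the mutants. Replicate 1 of each genotype was high and replicate 2 low, numbers that only follow the order of deposit. The log2 change of -0.43 had a standard error of 1.31, and became 1.68 without control 1, -1.25 without control 2, -2.52 without mutant 1 and 0.39 without mutant 2. Stromal markers followed the same order of libraries, control 1, mutant 1, control 2 and mutant 2, at 2418, 1097, 705 and 14.7 CPM in sum. Of the 10 stromal markers, 8 were highest in control 1 and 9 lowest in mutant 2. In mutant 2, where Ctgf had 92 counts, 4 of the 10 were at 0 (Col1a1, Pdgfra, Pdgfrb and Rgs5), and the others had 406 (Col3a1), 86 (Col1a2), 79 (Cspg4), 74 (Lum), 22 (Dcn) and 1 (Acta2). The part of stromal cells in the Ctgf value was not tested. A noncoding antisense gene, Gm15270, overlaps Ctgf and had at most 5 counts.

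**Figure D2:**
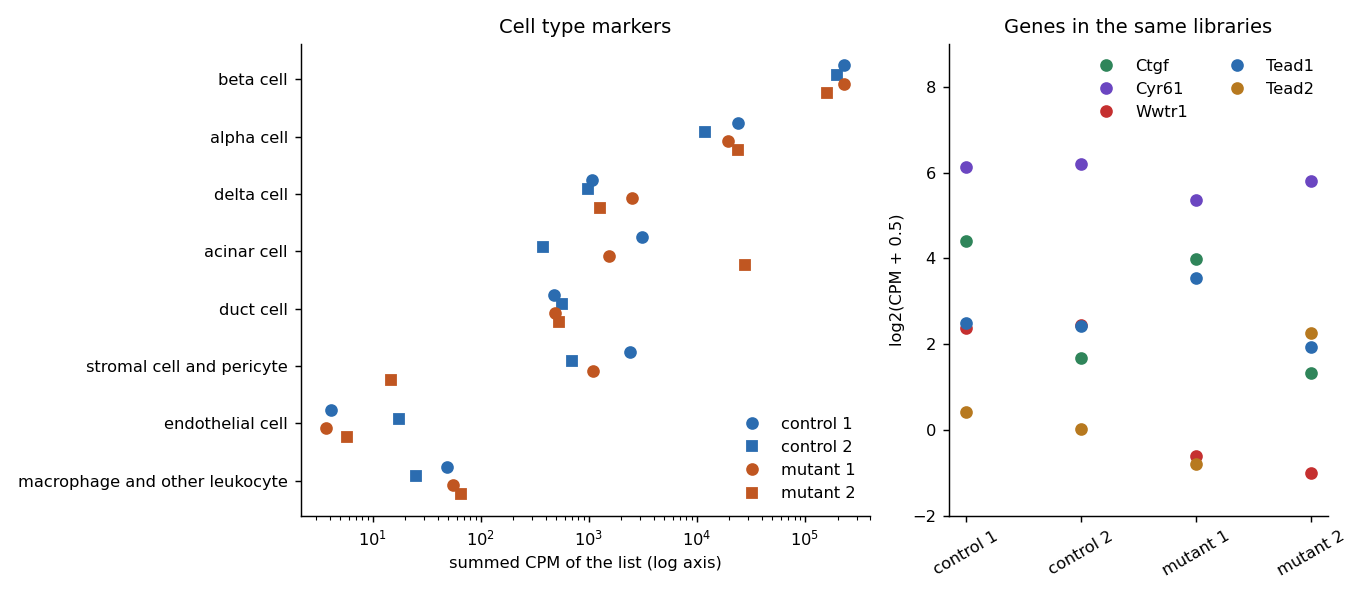
Left, summed CPM of 8 cell type marker lists (log axis) in each library. Right, log2(CPM + 0.5) of 5 of the genes in the same libraries. The stromal sum runs from 14.7 CPM in mutant 2 to 2418 CPM in control 1 and the acinar sum from 374 CPM in control 2 to 28121 CPM in mutant 2; their part in the values on the right was not tested.

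Ordered by level per kb in control cells, the genes ran Cyr61 (35.4 CPM per kb), Lats1 (5.92), Ctgf (4.06), Lats2 (1.15), Wwtr1 (1.02), Tead1 (0.367), Yap1 (0.169), Tead2 (0.141), Tead3 (0.0284) and Tead4 (0). The control values of Lats1 and Ctgf overlapped, as did those of Ctgf and Lats2, Lats2 and Wwtr1, and Yap1 and Tead2. The order was the same with the longest transcript as the length. Wwtr1 had rank 5 in the controls and rank 9 in the mutants, at 0.0167 CPM per kb, and the target Cyr61 still ranked 1, at 23.7 CPM per kb.

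**Figure D3:**
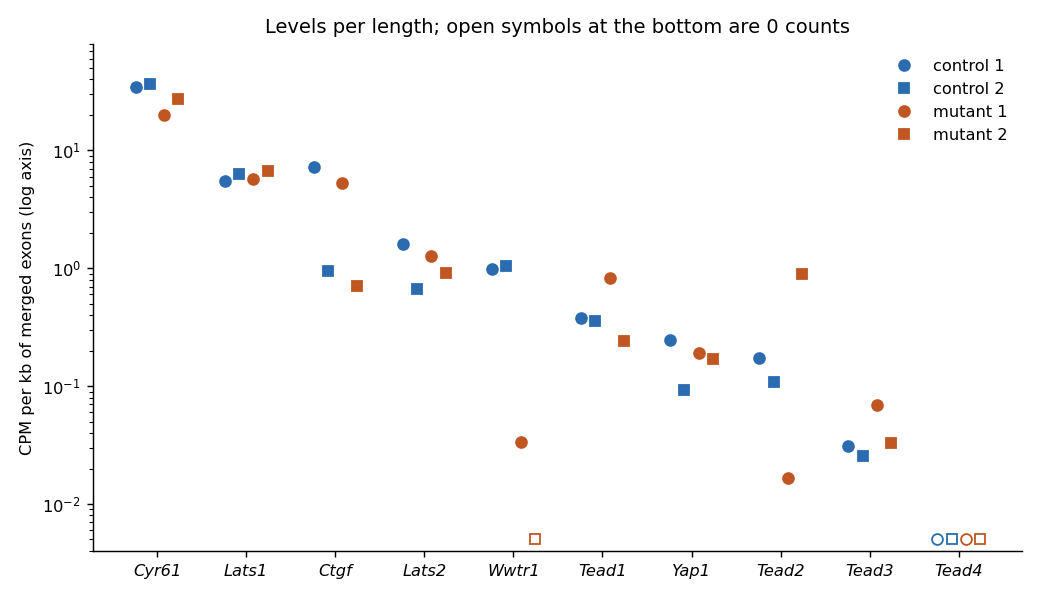
CPM per kb of merged exon length (log axis) of each gene in each library, ordered by the control mean; open symbols at the lower edge stand for 0 counts. Cyr61 lies highest in every library, and Wwtr1 lies near Lats2 in the controls and at the low end in the mutants.

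Other genes of the pathway came from lists of kinases, polarity proteins, cofactors and targets. The kinase core and its scaffolds, the genes of the MST, SAV, MOB and TAO proteins and their partners, were all measured. Of 19 tested, 10 were higher and 9 lower, with a median log2 change of 0.0028, and 0 reached an unadjusted p under 0.05 in edgeR (6.21% of all genes did). The genotypes did not overlap in 6 of 19, where 36.6% of all tested genes did not. Nf2, the gene of the membrane-linked activator merlin, had the smallest p of the list, at 156 and 176 CPM in control and 137 and 109 CPM in mutant libraries (log2 change -0.43, unadjusted p = 0.057). Mob1b, a coactivator of the LATS kinases, was at 22.8 and 17.6 against 34.6 and 23.8 CPM (log2 change 0.53). Taok2, the most abundant by mean CPM over the 4 libraries, although Nf2 was higher in control, stood at 149 ± 10.6 and 146 ± 1.67 CPM (SD, n = 2 each).

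Among regulators at junctions and cell poles, 9 of 19 were higher and 10 lower, with a median of -0.0082. The genotypes did not overlap in 7 of 19, where 36.6% of all tested genes did not. Of these, 6 were lower and 1 higher in the mutant, beside 20.4% and 16.1% of all tested genes. At an unadjusted p under 0.05 there were 2, Fat4 and Dchs1, both lower (4.21% of all tested genes were lower at that level and 6.21% reached it in either direction). These encode a pair of giant cadherins that bind each other between neighbouring cells. Fat4 was at 3.78 and 1.20 CPM in control and Dchs1 at 1.40 and 0.712 CPM, and both had 0 counts in both mutant libraries. With 3 counts per library as the floor, Fat4 was at least 39.6-fold and Dchs1 at least 16.8-fold lower in the mutant. DESeq2 called Fat4 (adjusted p = 0.0032) but not Dchs1 (0.130). Both passed the filter through the controls alone, as all 304 genes at 0 in both mutants did. Cdh1, the gene of E-cadherin and the most abundant of the list, was at 827 and 918 against 636 and 842 CPM, with the genotypes overlapping.

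The VGLL proteins compete with YAP and TAZ for TEAD. Vgll3 was at 1.04 and 0.564 CPM in control and had 0 counts in both mutants, at least 12.8-fold lower (unadjusted p = 0.012 in edgeR, adjusted p = 0.269 in DESeq2), and again entered the test through the controls alone. Vgll4, the more abundant, was at 8.21 and 9.20 against 6.76 and 4.64 CPM, a log2 change of -0.61 (unadjusted p = 0.185). Vgll1 and Vgll2 had 0 counts in every library.

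With all libraries in edgeR, the target genes beyond the members did not shift in 1 direction. Of 20 tested, 10 were higher and 10 lower, the median was -0.053, and 0 reached an unadjusted p under 0.05. The split depended on the setting. In limma on log2 CPM 7 were higher and 13 lower (median -0.31), and without mutant 1 it was 6 and 14 (-0.40). Without control 1, 14 were higher and 6 lower (0.22). Amotl2, Ptpn14 and Ajuba are also in the list of junction regulators. The genotypes did not overlap in 3 of 20, all lower, where 36.6% of all tested genes did not overlap and 20.4% were lower without overlap. Myof, the gene of a membrane repair protein, had the smallest p, at 4.51 and 4.05 CPM in control and 0.580 and 0 CPM in mutant libraries (log2 change -3.87, unadjusted p = 0.111). Arhgef17, a guanine nucleotide exchange factor gene and the most abundant of the list, was at 99.7 and 107 against 71.1 and 98.6 CPM. Axl and Ccdc80, chosen after their values were seen, had the library order of Ctgf. Axl stood at 40.7, 9.35, 27.6 and 5.10 CPM and Ccdc80 at 26.7, 11.0, 25.1 and 0 CPM. Nuak2 had this order too, at 61.7, 50.3, 55.3 and 47.7 CPM. Other targets did not: Igfbp3, Crim1 and Asap1 were highest in mutant 1, and Gadd45a and F3 in mutant 2. How many genes of the list had the order of Ctgf was not counted. Of the other CCN genes, Nov was at 32.0 and 4.42 against 4.18 and 0 CPM and Wisp2 at 3.68 and 0.0245 against 1.28 and 0 CPM. All 3 tested CCN genes beyond Cyr61 and Ctgf had a negative log2 change, none with an unadjusted p under 0.05, and 1 of them turned positive without control 1 or without mutant 2.

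Cyr61 is also known as an immediate early gene, induced within minutes by serum. The list of 20 such genes, chosen like the others with earlier results of these data known, had changes of the opposite sign. All 20 had a positive log2 change, with a median of 0.96, and in 15 both mutants lay above both controls, where 16.1% of all tested genes did so. With library totals alone 19 of 20 were positive, and without control 2 there were 18 of 20 with a median of 0.49. Summed, they stood at 11483 and 5019 CPM in control and 14451 and 17500 CPM in mutant libraries. At an unadjusted p under 0.05 there were 3, all higher (1.99% of all tested genes were): Fosl2 (log2 change 1.90), Atf3 (1.48) and Nr4a1 (1.95). In edgeR's quasi-likelihood test the adjusted p was 0.680 for Fosl2 and Atf3 and 0.696 for Nr4a1. DESeq2 called 2 of the 20, both higher, where it called 0.914% of all tested genes. These were Fosl2 (adjusted p = 0.00038 by DESeq2) and Atf3 (0.013), but not Nr4a1 (0.391). The most abundant, Fos, was at 3965 and 1829 against 4886 and 5184 CPM.

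**Figure D4:**
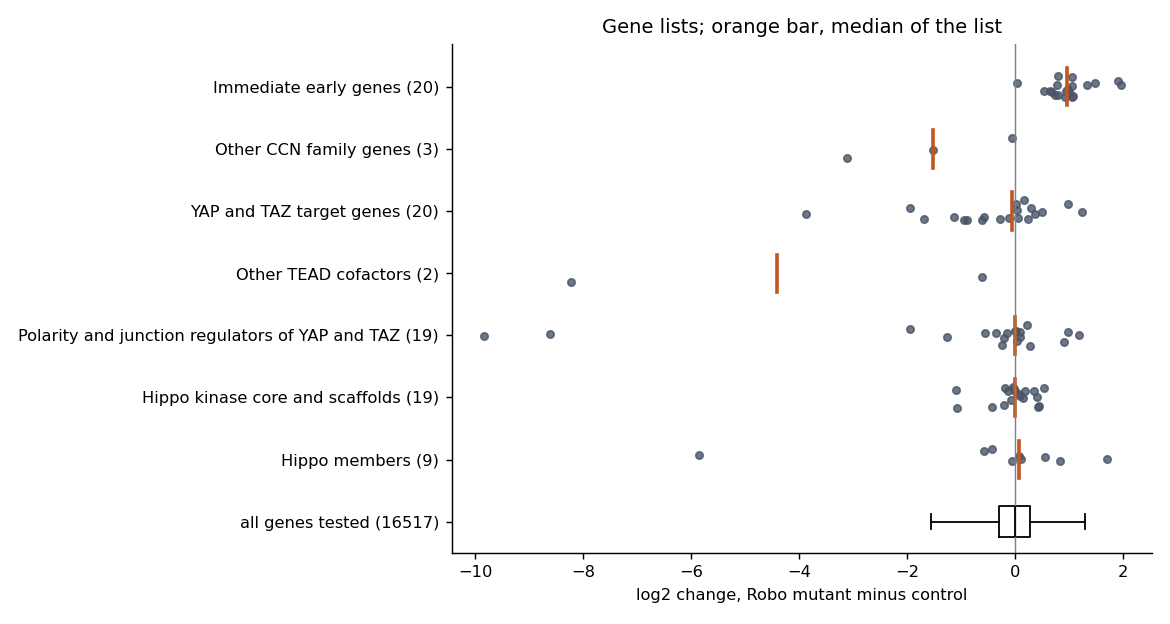
Log2 change, Robo mutant minus control (horizontal axis), of each tested gene in the lists, with the list median as an orange bar; the box shows the quartiles and the 5th to 95th percentiles of all 16517 tested genes. Medians of the kinase, polarity and target lists lie at 0.0028, -0.0082 and -0.053, and that of the immediate early genes at 0.96.

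Mutant 2 stood apart in acinar and stromal transcripts, and the fit was repeated without it. There 4 of the 9 genes had an unadjusted p under 0.05 in edgeR, against 17.4% of all tested genes: Wwtr1 (log2 change -4.90) and Cyr61 (-0.82) as before, and Tead1 (1.17) and Tead2 (-3.04). Here the lone mutant library is assumed to vary as the controls do, and edgeR gave each an adjusted p of 0.133 or more. Without it the kinase list had 6 higher and 13 lower, the junction list 4 higher and 14 lower, and the target list 7 higher and 11 lower, beside 47.7% higher among all tested genes. The target list also turned with the controls, with 14 of 20 higher without control 1 and 5 of 18 higher without control 2.

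**Figure D5:**
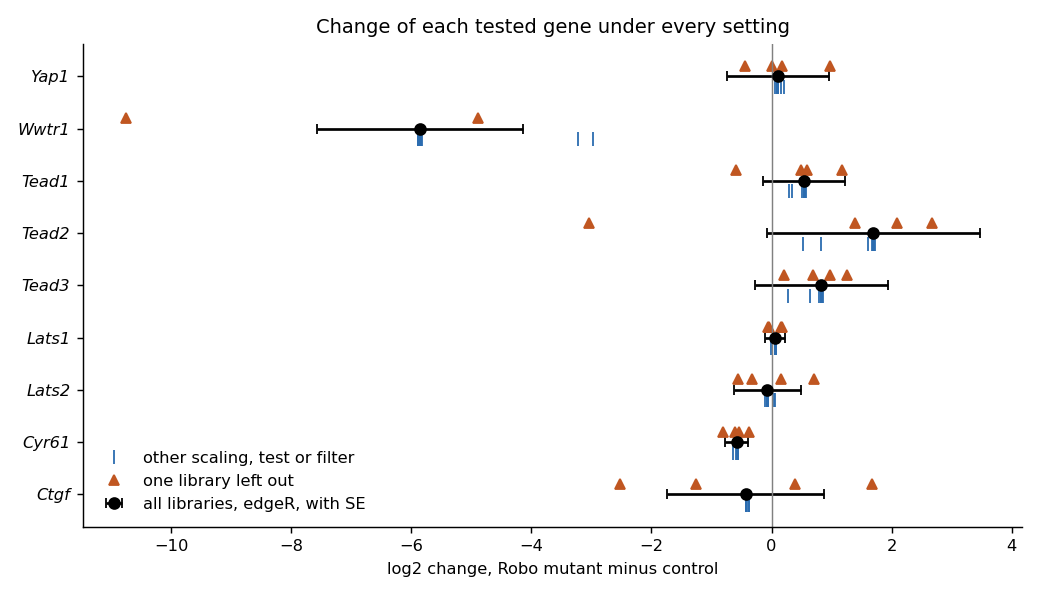
Log2 change of each tested gene (horizontal axis, Robo mutant minus control) with all libraries and its SE in black, under other scalings, tests and filters in blue, and with 1 library left out in orange. Wwtr1 and Cyr61 stay on the negative side under every setting that could be fitted, and Tead3 stays on the positive side. Ctgf, Tead1, Tead2, Lats1, Lats2 and Yap1 cross 0.

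Over the 4 libraries, the named genes nearest to Wwtr1 in log2(CPM + 0.5) were Tbx3, Kif20b, Smoc2, Kif18b and Espl1, at Euclidean distances of 0.244 to 0.535. Tbx3, a T-box factor gene, was at 5.47, 5.45, 0.120 and 0 CPM. Kif20b, Kif18b and Espl1, genes of cell division, and Smoc2, a matrix protein gene, had 0 counts in both mutant libraries. Nearest to Yap1, after centring each gene on its mean, was Rnf122 at 6.58, 2.77, 5.20 and 4.51 CPM (distance 0.0722), then Guca1a, Nxpe4, Dgka and Cct6b. With 4 libraries such likeness describes these samples only.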

How the data were processed

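The submitters' processing notes name RSEM 1.3.0, STAR 2.5.3a, edgeR 3.16.5 and bcl2fastq 2.20.0.422, and the build GRCm38. What edgeR was used for, and which annotation, is not given in the sources used here. Libraries were made from full-length cDNA by tagmentation, without strand marking, per the labels' protocols. The deposited table holds whole-number expected counts per gene from RSEM. Its name calls them normalized; since the totals differ they were treated as counts, and an earlier rescaling is not excluded, in which case counting intervals are approximate. No further columns were present (0).

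Genes reaching 10 counts in 2 or more libraries were kept, scaled by TMM, and tested two-sided with edgeR 4.0.16 (glmQLFit, glmQLFTest) in R 4.3.3, both genotypes in 1 fit without covariates. The SE is the log2 change divided by the root of F. DESeq2 1.42.0, limma 3.58.1 with a pseudocount of 0.5, other scalings and filters, and leaving out each library were alternatives. The procedure was tested on simulated data. GENCODE M21, which matched 51633 of 51912 identifiers, gave positions and merged exon lengths; RefSeq (GRCm38.p6) gave upstream sequences, matched by symbol or synonym for 7 of 10 genes. Protein sequences were not used here. Members and lists were chosen with earlier results of these data known. Named were all members, Robo1 and Robo2, list genes with an unadjusted p under 0.05 or else the 2 of smallest p, the most abundant of each list, markers at 0 (the duct gene Cftr in all libraries) and the genes most alike to Wwtr1 and Yap1; 1 marker list is not reported here. Replicates agreed less than counting error allows, so each library counted as 1 sample.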

Additional observations from a re-analysis of the deposited data

How the results depend on the processing

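edgeR called 0 genes under each other scaling and filter and limma called 0, while DESeq2 called 151 genes, 1 of them among the 9 tested Hippo genes. Leaving out 1 library gave 0 to 1 calls over all genes, 181 to 3038 genes at an unadjusted p under 0.05 (1025 with all), and 0 to 4 such Hippo genes (2 with all), with 0 calls among them. Without either control Wwtr1 no longer passed the filter, so it has no value there. In the fits that held it, its log2 change lay between -10.8 and -2.98, nearest 0 in limma, where the pseudocount shrinks low values. At that level 329 of 1025 genes were higher in the mutant, against 511 of 1068 after quantile normalization.

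Directions turned as follows. Lats1 was at -0.0051 with library totals alone, and Lats2 at 0.037 in limma and 0.065 after quantile normalization. With 1 library left out, Yap1 ranged from -0.44 to 0.97, Tead1 from -0.59 to 1.17, Tead2 from -3.04 to 2.67, Lats1 from -0.055 to 0.17, Lats2 from -0.56 to 0.70 and Ctgf from -2.52 to 1.68. The cause was not tested. No paired analysis was possible because the labels give no replicate numbers; those used here follow accession order. The counts of list members without mutant 2 were added after seeing the data. At about 10 counts or fewer, as for Tead3 outside mutant 1 (10, 7 and 10 counts), counting error limits every comparison. The same holds for Wwtr1 in the mutants (8 and 0 counts) and Tead2 in mutant 1 (4 counts). Arms of 2 libraries also leave wide errors.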

Other observations

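The duct markers summed to 478 and 567 CPM in controls 1 and 2 and to 489 and 525 CPM in mutants 1 and 2, the order kept below. Krt7, the most abundant, was at 410, 432, 404 and 387 CPM, and Cftr, a channel gene that defines duct cells, had 0 counts in every library. Muc1, an apical mucin gene, was at 2.76, 8.64, 2.06 and 32.4 CPM. Of the 7 duct markers with counts, 4 were highest in control 2 and 3, Muc1 among them, in mutant 2. The leukocyte markers summed to 48.8, 25.2, 55.1 and 65.5 CPM. Among them the complement gene C1qa, the most abundant, was at 17.9, 15.4, 17.5 and 22.9 CPM. The integrin gene Itgam had 0 counts in both controls and 170 and 81 in the mutants, at least 38.0-fold higher. Itgam passed the filter through the mutant libraries alone. Of the 8 leukocyte markers, 2 had both mutants above both controls, where 16.1% of all tested genes did so. The glucagon gene Gcg was at 23056, 11451, 18559 and 23497 CPM.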
